A study of Mus musculus with 10 samples.

Results

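Serpina3n, Spp1, C4b, Timp1 and Lcn2 encode secreted proteins that glia and immune cells are known to release when tissue is stressed or inflamed. The set was chosen by the levels of Serpina3n and Spp1, which were high in embryonic mouse brains that lack COP1, cJun, ETV1 and ETV5. The set holds 5 of the 28059 gene identifiers measured, and 4 of the 5, all but Lcn2, had enough counts for a test. Because that genotype chose the set, the levels in it are given as a description without a test.

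RNA was sequenced from whole brains at E18.5, late in gestation, without the olfactory bulbs, in 10 libraries of 5 genotypes with 2 libraries each. The genotypes are COP1.cJun.ETV1.ETV5 QKO (QKO), COP1.cJun.ETV1 TKO (TKO), COP1.cJun DKO (DKO), COP1 KO (KO) and COP1 het control (control). QKO, TKO, DKO and KO thus share the loss of COP1, and the control is heterozygous for it and not wild type. The driver of the deletions, the cells it acts in, the litter and the sex were not stated in the labels, so libraries of 1 genotype may come from 1 litter. The p-values therefore cover only how far these libraries differ, which may be technical. Libraries are called by genotype and a number, as in QKO 1, and the number pairs nothing.

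The control of these genes is well studied in adult tissue. Serpina3n, a serine protease inhibitor, and Lcn2, which binds iron carriers of bacteria, are textbook acute phase and reactive astrocyte genes. Spp1 encodes osteopontin, a matrix glycoprotein that binds integrins and CD44 and is made by bone cells, some microglia and some neurons. C4b is a component of complement, the cascade that tags targets for phagocytosis, and Timp1 blocks matrix metalloproteinases. COP1 marks transcription factors for degradation, among them cJun, a subunit of AP-1, and several ETS-family factors, so the deleted factors are ones that bind gene promoters.

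The promoters of both genes that chose the set are shown because the deleted factors bind DNA. They are the 250 bases before the annotated start in RefSeq's GRCm38.p6 table, on the plus strand, at chr12:104406458-104406707 for Serpina3n and at chr5:104434861-104435110 for the first of 2 Spp1 starts. Capitals mark AGGAAG, a core that ETS factors can bind, or CTTCCT, the same letters on the other strand.
Serpina3n: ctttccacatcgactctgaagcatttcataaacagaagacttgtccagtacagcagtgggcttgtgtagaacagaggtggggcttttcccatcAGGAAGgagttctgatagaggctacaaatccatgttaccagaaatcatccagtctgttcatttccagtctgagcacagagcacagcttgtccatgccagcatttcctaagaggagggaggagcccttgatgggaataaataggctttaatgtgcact
Spp1: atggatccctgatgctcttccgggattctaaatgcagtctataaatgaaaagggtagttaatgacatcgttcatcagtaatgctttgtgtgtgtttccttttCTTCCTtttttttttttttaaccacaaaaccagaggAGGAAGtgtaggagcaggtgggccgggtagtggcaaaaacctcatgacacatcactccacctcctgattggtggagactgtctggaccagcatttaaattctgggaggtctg
AGGAAG, searched on both strands, lay 157 bases before the start in Serpina3n, and 148 and 112 bases before it in Spp1. It was also present in the promoters of Timp1 and Lcn2, and 29.5% of the 32851 promoters of this length in the table held it. The AP-1 letters TGANTCA and TGAGTAA, also searched on both strands, were in none of the promoters of Serpina3n, Spp1, Timp1 and Lcn2, against 6.75% and 2.25% of all promoters. A match is a run of letters and not a bound site. No promoter of C4b was matched.

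Library totals ran between 31996944 and 54594523 counts, and 18671 identifiers passed a filter on low counts. Neuronal transcripts marked every library as brain, with Tubb3, a neuronal tubulin, between 974 and 1209 nRPKM (reads scaled for gene length and library depth, as normalized and deposited by the authors). Jun was between 1.44 and 2.94 nRPKM in QKO, TKO and DKO and between 14.99 and 16.08 nRPKM in KO and control. Etv1 was at 4.71 and 4.38 nRPKM in QKO and 3.80 and 3.67 nRPKM in TKO, against 1.98 and 2.11 nRPKM in DKO. KO was at 1.76 and 2.29 nRPKM and control at 4.82 and 4.95 nRPKM, so KO and DKO were the low groups. Etv5 was at 3.97 and 4.11 nRPKM in QKO against 3.75 and 3.93 nRPKM in TKO. It was at 3.25 and 3.08 nRPKM in DKO, 2.65 and 2.68 nRPKM in KO and 6.72 and 7.24 nRPKM in control. Reads summed over a gene cannot show a lost exon, so these values are no check of the ETV1, ETV5 or COP1 genotype. Xist was high in control 1 and DKO 1 and near 0 in the other 8 libraries, so sex is mixed in control and DKO. HOX genes, which mark the caudal hindbrain, differed widely between libraries, and their values stand beside the results they touch.

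Serpina3n (Entrez 20716) stood apart in QKO. It was at 3.22 and 2.74 nRPKM in QKO, 0.969 and 1.06 nRPKM in TKO, 0.855 and 1.08 nRPKM in DKO, 1.16 and 1.21 nRPKM in KO and 0.898 and 1.02 nRPKM in control. Both QKO libraries lay above all other 8, and the other 4 genotypes lay close together. Serpina3n was the one member of the set with this order, which 2.32% of all kept genes had, and since QKO chose the set nothing is read from that share. The counts behind these levels were 281 and 258 in QKO and between 78 and 144 in the other 8 libraries. The fitted log2 fold change of QKO was 1.55 ± 0.16 (SE) over TKO, 1.63 ± 0.16 over DKO, 1.32 ± 0.15 over KO and 1.63 ± 0.16 over control, the last being 3.10-fold.

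Outside QKO, Serpina3n moved little. KO averaged 1.19 ± 0.0383 nRPKM and control 0.961 ± 0.0887 nRPKM (SD, n = 2 each). The difference was 0.31 ± 0.17 on the log2 scale and did not pass edgeR's quasi-likelihood test (adjusted p = 0.551). DKO was at -0.31 ± 0.17 relative to KO (adjusted p = 0.425), TKO at 0.09 ± 0.18 relative to DKO (adjusted p = 0.865), DKO at -0.0033 ± 0.17 relative to control (adjusted p = 0.998) and TKO at 0.08 ± 0.17 relative to control (adjusted p = 0.900). Both KO libraries were above both control, both DKO and both TKO libraries, by less than the test could call. Of the 4 kept members, 3 had libraries that did not overlap in KO vs control, against 49.5% of all genes.

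**Figure D1:**
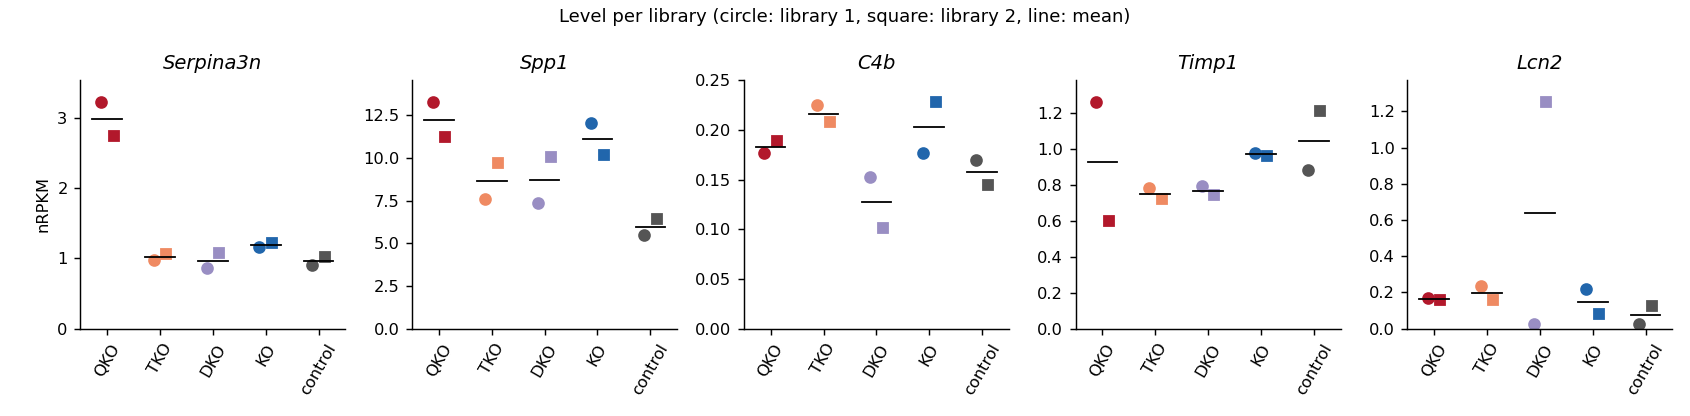
Level of each member in nRPKM (vertical axes, linear, from 0) in the 2 libraries of each genotype (horizontal axis), with the mean as a line. Serpina3n is above all other libraries in both QKO libraries, Spp1 is lowest in both control libraries, and the mean of Lcn2 in DKO rests on DKO 2 alone.

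Serpina3n lies on chromosome 12 at the end of a run of 10 SerpinA3 paralogs, which encode related protease inhibitors. Of the 10, only Serpina3f, Serpina3g, Serpina3h and Serpina3m passed the filter on low counts. Serpina3h had 25 and 20 counts in QKO, 5 and 2 in TKO, 3 and 3 in DKO, 1 and 1 in KO and 3 and 2 in control. Serpina3m, the direct neighbour of Serpina3n, had 15 and 16 counts in QKO, 0 and 0 in TKO, 0 and 1 in DKO, 0 and 0 in KO and 0 and 1 in control. Serpina3f had 13 and 13 counts in QKO and between 2 and 9 elsewhere, and Serpina3g had 10 and 9 counts in QKO and between 5 and 18 elsewhere. Serpina3h and Serpina3m were thus near the detection limit outside QKO, and the QKO counts of Serpina3g lay within the range of the other libraries.

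Serpina3h, Serpina3m and Serpina3f had their highest counts in QKO, and those counts helped them through the filter. The differences of the paralogs between QKO and the other genotypes are therefore given as counts, without a test or a fold.

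Reads that fit more than 1 paralog could move counts between these genes. Of the 1990 windows of 75 bases, the read length, in the Serpina3n transcript, 26 (1.31%) also occur without a mismatch in another SerpinA3 transcript. Few exact stretches of Serpina3n are thus shared. Windows that match with mismatches were not counted, so this share cannot show how many reads the authors' counting moved. The share was 12.8% for Serpina3h and 9.65% for Serpina3m, whose low counts are therefore less certain. The genes on the far side of Serpina3n were level or too low to test. Gsc, the next gene, did not pass the filter, and Dicer1, which makes microRNAs, was at 15.5 and 13.3 nRPKM in QKO, 16.2 and 13.8 nRPKM in TKO, 12.1 and 14.2 nRPKM in DKO, 14.5 and 16.5 nRPKM in KO and 13.9 and 13.9 nRPKM in control. Etv1 lies on the same chromosome as Serpina3n, with 343 kept genes between them, and whether linkage to a targeted allele bears on the run was not tested.

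**Figure D2:**
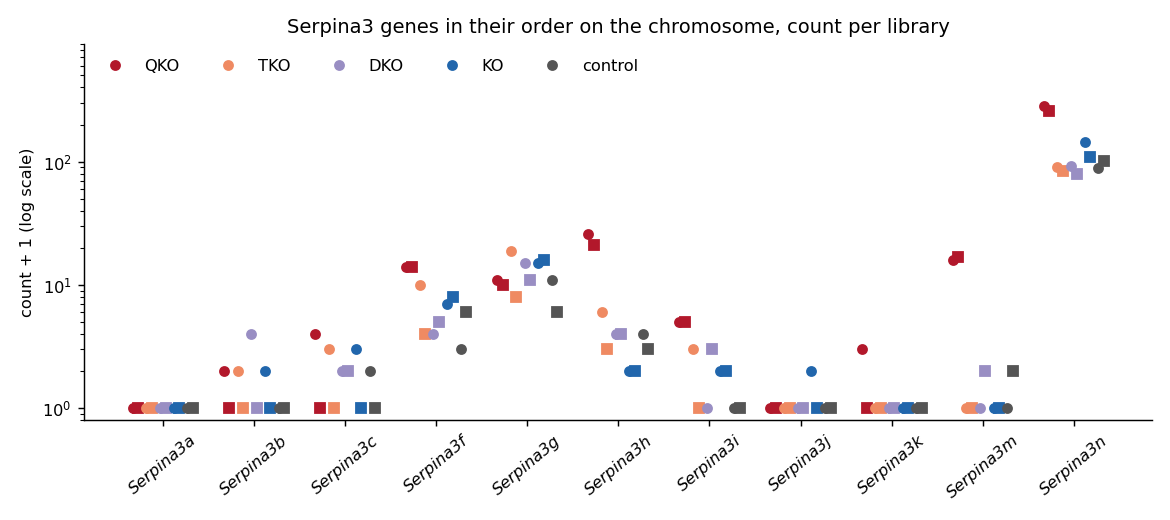
Counts plus 1 (vertical axis, log scale) of the 11 SerpinA3 genes in chromosome order (horizontal axis), with circles for library 1 and squares for library 2 of each genotype. The QKO libraries stand above the rest at Serpina3f, Serpina3h, Serpina3m and Serpina3n, and at Serpina3i with 4 and 4 counts against at most 2, but not at Serpina3g.

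The kept genes whose log2 CPM ran most like that of Serpina3n over the 10 libraries were Serpina3m (Pearson r = 0.955), Mettl8, an RNA methyltransferase (r = 0.940), and Tmem87a, a Golgi membrane protein (r = 0.938). Spearman's rho was 0.621, 0.855 and 0.685 for the same genes. Mettl8 was at 4.71 and 4.50 nRPKM in QKO and between 2.87 and 3.90 nRPKM elsewhere. These correlations are a description over libraries that share genotypes, and they rest on the gap between QKO and the rest. Serpina3m had at most 1 count in any library outside QKO and was helped through the filter by QKO. Its r therefore comes with the choice of QKO, and nothing is read from it.

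Spp1 (Entrez 20750) followed another order, with its lowest level in control. It was at 13.3 and 11.2 nRPKM in QKO, 7.57 and 9.69 nRPKM in TKO, 7.34 and 10.04 nRPKM in DKO, 12.04 and 10.2 nRPKM in KO and 5.47 and 6.43 nRPKM in control. Both control libraries were below all other 8, an order that 2.29% of all kept genes had. Part of this order, control below QKO, comes with the choice of the set, so nothing is read from that share. QKO and KO overlapped, with KO 1 above QKO 2, and TKO and DKO overlapped between them and control. In group means the order was QKO (12.2 ± 1.45 nRPKM), KO (11.1 ± 1.33), DKO (8.69 ± 1.91), TKO (8.63 ± 1.51) and control (5.95 ± 0.685; SD, n = 2 each).

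Spp1 rose in KO relative to control, a comparison that did not choose the set but shares the control libraries with QKO vs control. KO had 1191 and 727 counts and control 426 and 505 counts. The log2 fold change was 0.91 ± 0.17, or 1.88-fold (edgeR adjusted p = 0.0377; DESeq2 adjusted p = 2.55e-05). It was the only call among the 4 tested members in KO vs control, against 0.734% of all genes. The call was lost in each of the 4 fits that leave out KO 1, KO 2, control 1 or control 2 (0.78 to 1.02, adjusted p between 0.103 and 0.397), in which a lone library was taken to vary like the other groups. It was also lost without the 2 libraries with high Xist (0.79, adjusted p = 0.119) and with HOX level as a covariate (1.35, adjusted p = 0.0542).

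In the other comparisons that leave out QKO, edgeR called 0 of the 4 tested members. The background of calls was 0.568% of genes in DKO vs KO, 0.0911% in TKO vs DKO, 0.423% in DKO vs control and 0.15% in TKO vs control. At an unadjusted p under 0.05 there were 2 members in DKO vs KO (13.8% of all genes), and 1 each in TKO vs DKO (11.9%), DKO vs control (8.14%) and TKO vs control (10.2%), beside 1 in KO vs control (10.4%). DESeq2 called 0 in those 4 comparisons and gave no adjusted p for C4b and Timp1 in DKO vs KO. Libraries did not overlap for 4 of the 4 members in DKO vs KO (46.8% of all genes), 1 in TKO vs DKO (42.6%), 2 in DKO vs control (38.7%) and 3 in TKO vs control (47.9%). For Spp1 the log2 fold change was -0.37 ± 0.17 in DKO vs KO (adjusted p = 0.353), -0.00086 ± 0.17 in TKO vs DKO (adjusted p = 0.999), 0.54 ± 0.17 in DKO vs control (adjusted p = 0.345) and 0.54 ± 0.17 in TKO vs control (adjusted p = 0.339). TKO vs control passed in a fit of those 4 libraries alone (adjusted p = 0.0351; between 0.0351 and 0.895 over 10 alternatives). As a description, QKO stood at 0.50 ± 0.17 over TKO, 0.50 ± 0.17 over DKO, 0.13 ± 0.16 over KO and 1.04 ± 0.17 over control.

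**Figure D3:**
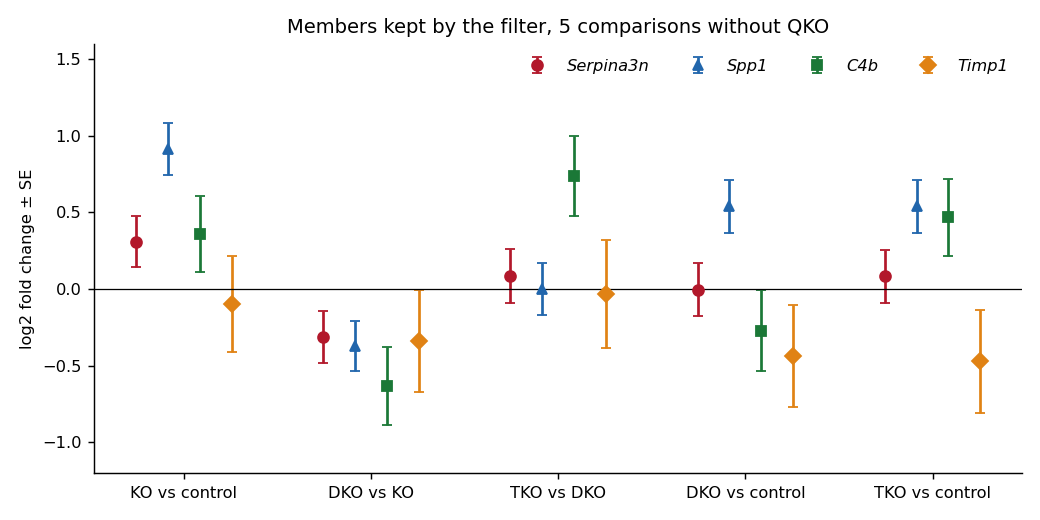
Log2 fold change with its standard error (vertical axis) of the 4 members kept by the filter in the 5 comparisons that do not involve QKO (horizontal axis). Spp1 in KO vs control, at 0.91, is the one value that passed the test.

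Markers of brain regions and of cells that make osteopontin did not all stay level where Spp1 differed. In bulk tissue, fewer cells of a type and less RNA per cell cannot be told apart. The summed level of 13 HOX genes was 13.8 and 2.22 nRPKM in QKO, 8.13 and 6.13 nRPKM in TKO, 1.87 and 3.69 nRPKM in DKO, 1.76 and 0.755 nRPKM in KO and 13.4 and 18.7 nRPKM in control. HOX was low in KO where Spp1 was high, and high in control where Spp1 was low. QKO 1 went the other way, with HOX at 13.8 nRPKM and the highest Spp1 of all libraries, 13.3 nRPKM. DKO had low HOX with Spp1 between control and KO, at 7.34 and 10.04 nRPKM. In KO vs control 6 of 11 tested HOX genes fell, against 0.734% of all genes called in either direction. The part of HOX in the difference of Spp1 was not tested beyond the covariate fit above. HOX did not overlap between KO and control, so that fit leans on HOX differences within genotypes, which were widest in QKO. The 10 bone markers summed to between 7.04 and 8.66 nRPKM in all 10 libraries, with 0 of 9 tested called in any comparison by edgeR or DESeq2 and at most 2 at an unadjusted p under 0.05. Ibsp, a bone matrix relative of osteopontin, was at 0.171 and 0.306 nRPKM in QKO, 0.403 and 0.0949 nRPKM in KO and 0.131 and 0.259 nRPKM in control.

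Microglia, which carry Spp1 in development and disease, gave no call. The 11 microglial markers summed to between 47.5 and 55.9 nRPKM, and edgeR called 0 of 11 in all 9 comparisons, with up to 4 at an unadjusted p under 0.05 and up to 1 by DESeq2. The 11 genes of activated microglia summed to 281.7 and 297.5 nRPKM in QKO, 345.7 and 404.1 nRPKM in TKO, 374.4 and 407.0 nRPKM in DKO, 359.8 and 336.2 nRPKM in KO and 332.1 and 324.1 nRPKM in control. Most of this sum was Apoe, a lipid carrier that astrocytes also make, at 196.9 and 172.1 nRPKM in QKO and 218.2 and 210.5 nRPKM in control, and Fabp5, a fatty acid binding protein, at 60.7 and 99.3 nRPKM in QKO and 89.5 and 87.7 nRPKM in control. Clec7a, a receptor of activated microglia, lay the other way, at 0.262 and 0.262 nRPKM in QKO and 0.0934 and 0.121 nRPKM in control, without passing (adjusted p = 0.316). The median log2 fold change of the list in QKO vs control was 0.08, and edgeR and DESeq2 called 0 of 10 in all 9 comparisons. At an unadjusted edgeR p under 0.05 there were up to 5 of 10, in QKO vs DKO, where the median log2 fold change was -0.18. Over all genes this share was 8.14% to 13.8% in the 5 comparisons without QKO. The share in QKO vs DKO is not given, so nothing is read from that count. Oligodendrocyte lineage genes rose in KO vs control in 6 of 11, and astrocyte markers in 4 of 11. Of all genes, 0.734% were called there in either direction. In QKO, where Spp1 was also high, neither list was high. The oligodendrocyte lineage genes summed to 108.5 and 98.85 nRPKM in QKO and 108.8 and 120.8 nRPKM in control. The astrocyte markers summed to 280.6 and 257.1 nRPKM in QKO and 303.2 and 294.6 nRPKM in control. Their part in the level of Spp1 was not tested.

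Receptors of osteopontin did not pass in any comparison. Of 10 listed, 9 were tested, and edgeR and DESeq2 called 0 in all 9 comparisons, with up to 3 at an unadjusted p under 0.05. The median log2 fold change of the list lay between -0.14 and 0.16. CD44 is the non-integrin receptor, and Cd44 averaged 1.11 ± 0.0799 nRPKM in QKO, 1.06 ± 0.0629 in TKO, 0.974 ± 0.0441 in DKO, 1.26 ± 0.112 in KO and 1.06 ± 0.0610 in control (SD, n = 2 each). Itgav, the integrin subunit that pairs with several beta chains to bind osteopontin, was between 5.53 and 6.46 nRPKM in the 5 group means. Of the 4 SIBLING genes, the family of Spp1, 2 were tested and edgeR and DESeq2 called 0 in all 9 comparisons, with 0 at an unadjusted p under 0.05. Pkd2, the gene next to Spp1, was between 8.26 and 11.1 nRPKM.

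The kept identifier most like Spp1 over the 10 libraries had a Pearson r of 0.989 and a Spearman rho of 0.988, and the reference tables pair it with no name. It had 445 and 424 counts in QKO, 274 and 333 in TKO, 296 and 284 in DKO, 610 and 383 in KO and 216 and 241 in control. Its order of libraries was close to that of Spp1, and whether it shares reads with Spp1 was not tested. The second was also unnamed (r = 0.919), and the third was Hsd3b2, a steroid dehydrogenase listed at 0.186 and 0.184 nRPKM in QKO and 0.0709 and 0.0822 nRPKM in control (r = 0.911).

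C4b (Entrez 12268) was low in every genotype and did not pass in any of the 5 comparisons without QKO. It had 40 and 46 counts in QKO, 54 and 42 in TKO, 42 and 19 in DKO, 57 and 53 in KO and 43 and 37 in control. Its level was 0.177 and 0.189 nRPKM in QKO, 0.225 and 0.208 nRPKM in TKO, 0.153 and 0.101 nRPKM in DKO, 0.177 and 0.228 nRPKM in KO and 0.170 and 0.145 nRPKM in control. Both DKO libraries were below both TKO, both KO and both QKO libraries, with DKO 2 the lowest of all. The difference was 0.74 ± 0.26 in TKO vs DKO (edgeR adjusted p = 0.351) and -0.63 ± 0.26 in DKO vs KO (adjusted p = 0.321). KO stood at 0.36 ± 0.25 relative to control (adjusted p = 0.653), DKO at -0.27 ± 0.27 (adjusted p = 0.874) and TKO at 0.47 ± 0.25 (adjusted p = 0.549). As a description, QKO was at 0.22 ± 0.25 over control and -0.25 ± 0.25 over TKO.

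The close copy C4a ran alongside. It had 52 and 53 counts in QKO, 68 and 40 in TKO, 48 and 18 in DKO, 68 and 56 in KO and 46 and 46 in control, again with DKO 2 lowest. Of 5305 windows of 75 bases in the C4b transcript, 1248 (23.5%) also occur in C4a, so how the authors' counting splits reads between them is uncertain. A second identifier, unnamed in the reference tables, held the counts of C4b in all 10 libraries and was taken as the same measurement. The named genes most like C4b were Cdk2, a cell cycle kinase (r = 0.956), and 2410004I01Rik (r = 0.955).

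C4b lies within the H2 complex, the mouse histocompatibility region on chromosome 17, and some genes of that region varied between libraries. H2-K1, a class I antigen-presenting gene, was at 3.38 and 3.40 nRPKM in QKO, 3.01 and 3.54 nRPKM in TKO, 7.69 and 14.8 nRPKM in DKO, 6.90 and 6.16 nRPKM in KO and 3.31 and 7.48 nRPKM in control. H2-T24 was at 5.48 and 2.21 nRPKM in QKO, 2.89 and 2.90 nRPKM in TKO, 0.368 and 0.132 nRPKM in DKO, 2.11 and 2.51 nRPKM in KO and 0.819 and 0.552 nRPKM in control. H2-K1 was highest and H2-T24 and C4b lowest in DKO 2. Of 22 tested genes of the region, edgeR called H2-T24 (higher) and H2-Q10 (lower) in TKO vs DKO, against 0.0911% of all genes called there, and DESeq2 called 5. H2-T24 also fell in DKO vs KO (0.568% of all genes called in either direction) and rose in QKO vs control (0.134% of all genes rose). H2-Q10 also fell in QKO vs KO (0.932% fell). In QKO vs DKO, H2-T23 and H2-T24 rose (0.188% of all genes rose) and H2-D1 and H2-Q10 fell (0.509% fell). The part of the region's differences in the level of C4b was not tested.

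Other complement genes gave no call. Of 16 components 15 were tested, and edgeR called 0 in all 9 comparisons, with up to 3 at an unadjusted p under 0.05 and up to 1 by DESeq2. C1qa, part of the starter complex of the classical pathway and made by microglia, averaged 8.13 ± 0.423 nRPKM in QKO, 7.68 ± 0.350 in TKO, 8.15 ± 0.641 in DKO, 8.38 ± 0.271 in KO and 8.31 ± 0.291 in control (SD, n = 2 each). Cfb, a protease precursor of the alternative pathway, averaged 2.10 ± 0.190 nRPKM in QKO, 2.25 ± 0.00587 in TKO, 1.36 ± 0.127 in DKO, 1.83 ± 0.106 in KO and 1.88 ± 0.116 in control. Like C4b it was lowest in DKO, and TKO vs DKO was 0.73 ± 0.13 (adjusted p = 0.0973). C3, the central component, was between 0.233 and 0.359 nRPKM in all libraries. In group means C3 was lowest in QKO and C1qa in TKO, so neither shared the low level of C4b and Cfb in DKO. Of 10 regulators 8 were tested, and edgeR and DESeq2 called 0 in all 9 comparisons, with up to 3 at an unadjusted p under 0.05.

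Timp1 (Entrez 21857) varied most within QKO. It was at 1.26 and 0.597 nRPKM in QKO, 0.782 and 0.720 nRPKM in TKO, 0.792 and 0.744 nRPKM in DKO, 0.980 and 0.964 nRPKM in KO and 0.885 and 1.21 nRPKM in control. QKO 1 was the highest and QKO 2 the lowest of the 10 libraries, so the QKO mean describes neither. Counts ran between 23 and 52. Both TKO and both DKO libraries were below both KO and both control libraries, but the differences did not pass (DKO vs control -0.44 ± 0.33, edgeR adjusted p = 0.825; TKO vs control -0.47 ± 0.34, adjusted p = 0.661; DKO vs KO -0.34 ± 0.33, adjusted p = 0.664). KO stood at -0.10 ± 0.32 relative to control (adjusted p = 0.947) and TKO at -0.03 ± 0.35 relative to DKO (adjusted p = 0.981).

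Timp1 lies within an intron of Syn1, which encodes the synaptic vesicle protein synapsin. The library kit marks no strand, so reads of both genes cannot be told apart where they overlap. Syn1 was between 63.2 and 75.1 nRPKM, far above Timp1, and did not follow it. The genes most like Timp1 were Myadm (r = 0.954), Snapc1, a subunit of the snRNA transcription complex (r = 0.928), and Nlrx1, a mitochondrial innate immune protein (r = 0.913).

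The other metalloproteinase inhibitors were expressed at far higher levels per length and gave no call. Timp2, Timp3 and Timp4 averaged 68.4 ± 4.56, 16.7 ± 1.88 and 6.31 ± 1.12 nRPKM in QKO, against 73.7 ± 2.56, 17.2 ± 0.494 and 6.47 ± 0.116 nRPKM in control (SD, n = 2 each). With Reck, an inhibitor anchored in the membrane, 0 of 4 were called by edgeR or DESeq2 in all 9 comparisons, with up to 2 at an unadjusted p under 0.05. Among 13 tested metalloproteinases, Mmp15, which is anchored in the membrane, was the one gene called by edgeR, while DESeq2 called 2 genes in KO vs control, 2 in QKO vs KO, 1 in QKO vs DKO and 1 in QKO vs control. It was at 14.4 and 13.8 nRPKM in QKO, 16.7 and 15.7 nRPKM in TKO, 19.1 and 17.2 nRPKM in DKO, 22.96 and 21.87 nRPKM in KO and 14.7 and 17.8 nRPKM in control. Mmp15 rose in KO vs control (0.47 ± 0.09, adjusted p = 0.0377) and fell in QKO vs KO (-0.68 ± 0.09, adjusted p = 0.00293). Calls in either direction covered 0.734% of all genes in KO vs control, and 0.932% of all genes fell in QKO vs KO. The rise passed in 5 of 10 alternatives and the fall in 10 of 10, and of the 4 fits without 1 library the rise passed only without control 2. Mmp9, which cleaves basement membrane collagen, averaged 5.12 ± 0.00893 nRPKM in QKO and 2.88 ± 0.960 nRPKM in control. QKO vs control did not pass for it in edgeR (0.83 ± 0.20, adjusted p = 0.235), and its DESeq2 result is not given.

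Lcn2 (Entrez 16819) was near the detection limit except in a single library. It had 6 and 6 counts in QKO, 9 and 5 in TKO, 1 and 37 in DKO, 11 and 3 in KO and 1 and 5 in control. DKO 2 was at 1.16 CPM (the count scaled to the library's total; exact Poisson interval 0.814 to 1.59, which covers counting error only), while every other library was at or below 0.219 CPM. Lcn2 did not pass the filter. In a fit without the filter, edgeR's log2 fold change was 2.90 ± 0.97 in DKO vs control (adjusted p = 0.260), 1.86 ± 0.84 in DKO vs KO (adjusted p = 0.357) and -1.52 ± 0.84 in TKO vs DKO (adjusted p = 0.549). KO stood at 1.04 ± 1.15 (adjusted p = 0.869) and TKO at 1.38 ± 1.14 (adjusted p = 0.820) relative to control. In fits that retain DKO 2 but not DKO 1 the gene passed the filter and was called in DKO vs control (4.01, adjusted p = 0.0233 without DKO 1) and in DKO vs KO (2.96, adjusted p = 0.04995 without both libraries with high Xist), each resting on DKO 2 alone.

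Neutrophils carry Lcn2 in their granules, and part of their genes were also high in DKO 2. S100a8, a subunit of the calcium-binding dimer calprotectin, was at 0.670 and 1.47 nRPKM in QKO, 1.15 and 1.29 nRPKM in TKO, 0.550 and 2.21 nRPKM in DKO, 0.898 and 0.414 nRPKM in KO and 0.434 and 0.593 nRPKM in control. S100a9, its partner, was at 2.95 nRPKM in DKO 2 and between 0.305 and 2.12 nRPKM elsewhere. Mmp8, a neutrophil collagenase, had 18 counts in DKO 2 and at most 5 elsewhere, and Retnlg had 8 counts in DKO 2 and at most 7 elsewhere. Ngp and Ltf, which encode granule proteins, were at 0.0496 and 0.0420 nRPKM in DKO 2, below their levels in TKO 1 (0.599 and 0.205 nRPKM), and Elane was listed at 0 in both DKO libraries. Prtn3, a granule protease, was between 1.90 and 2.87 nRPKM in all 10 libraries. The 11 neutrophil markers summed to 3.91 and 7.05 nRPKM in QKO, 7.33 and 5.03 nRPKM in TKO, 3.74 and 8.67 nRPKM in DKO, 5.40 and 3.41 nRPKM in KO and 3.01 and 3.78 nRPKM in control. The sum was thus highest in DKO 2. The 8 erythroid genes, which mark blood, summed to 979.7 and 1216 nRPKM in DKO and between 349.1 and 692.6 nRPKM elsewhere. Of 7 tested, edgeR called 5 higher in DKO vs control and 5 in DKO vs KO. Calls in either direction covered 0.423% and 0.568% of all genes there. DKO 1, with 1 count of Lcn2, was thus also high in erythroid genes. The part of neutrophils or of blood in Lcn2 was not tested. Of 5 tested neutrophil markers edgeR and DESeq2 called 0 in all 9 comparisons, with up to 3 at an unadjusted p under 0.05. Some genes outside the neutrophil list were highest in DKO 2 too. Steap4 and Ptgs2, of the reactive astrocyte lists, were at 0.413 and 0.278 nRPKM against at most 0.244 and 0.167 elsewhere. Aif1, a microglial marker, was at 4.807 nRPKM against at most 3.115. Other genes of those lists, such as Gfap (4.66 nRPKM) and Cx3cr1 (3.60 nRPKM), were not highest there. Their part in Lcn2 was not tested.

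**Figure D4:**
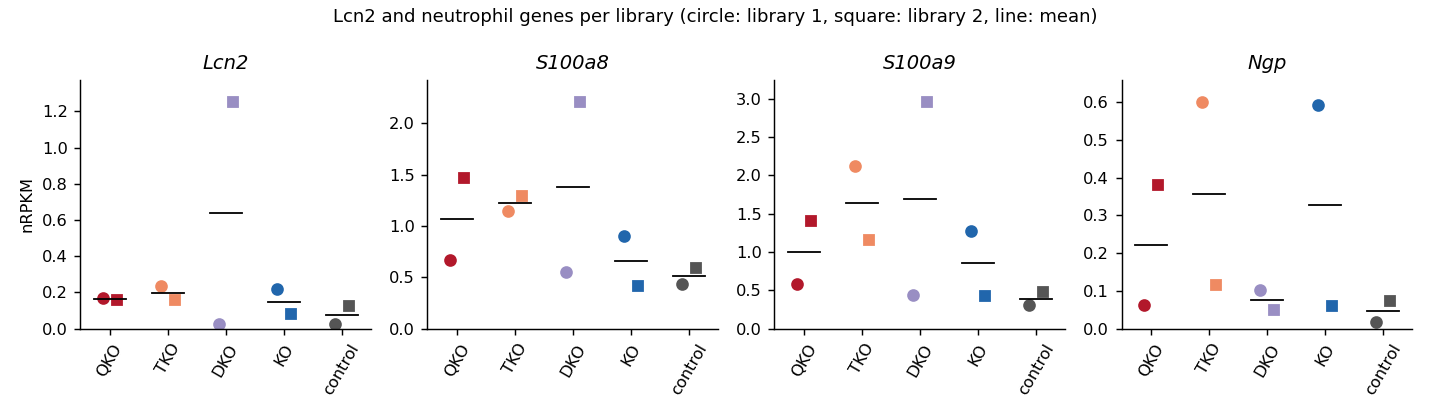
Level in nRPKM (vertical axes, linear, from 0) of Lcn2 and of the neutrophil genes S100a8, S100a9 and Ngp in the 2 libraries of each genotype (horizontal axis), with the mean as a line. DKO 2 is highest for Lcn2, S100a8 and S100a9 and among the low libraries for Ngp.

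Receptors for lipocalin 2 were Slc22a17, Lrp2 and Mc4r. Slc22a17 averaged 115.3 ± 2.73 nRPKM in QKO, 122.6 ± 2.04 in TKO, 126.4 ± 1.51 in DKO, 127.5 ± 10.7 in KO and 129.5 ± 2.90 in control (SD, n = 2 each). Mc4r, the melanocortin receptor of appetite control, averaged 2.45 ± 0.191 nRPKM in QKO, 2.14 ± 0.300 in TKO, 2.16 ± 0.356 in DKO, 1.39 ± 0.216 in KO and 2.04 ± 0.238 in control. It was higher in QKO than in KO (0.80 ± 0.17, edgeR adjusted p = 0.0456), and KO was the low group, with QKO nearer to the rest. Of all genes 0.353% rose in QKO vs KO. Mc4r was the only call among the 3 by edgeR and by DESeq2 over all 9 comparisons, and the edgeR call was lost in each of the 4 fits without KO 1, KO 2, QKO 1 or QKO 2 (4 of 10 alternatives passed, adjusted p between 0.00297 and 0.291).

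Genes known to accompany these factors in reactive glia did not share the QKO pattern of Serpina3n. Of 9 tested genes of a general astrocyte reaction, Gfap and Vim, which encode intermediate filaments, fell in QKO vs KO, where 0.932% of all genes fell. In the comparisons with QKO, 0 of the 9 rose. Gfap was at 4.08 and 2.12 nRPKM in QKO, 4.33 and 7.10 nRPKM in TKO, 5.56 and 4.66 nRPKM in DKO, 21.3 and 18.3 nRPKM in KO and 5.16 and 4.87 nRPKM in control. Gfap was high in KO alone, where Spp1 was also high, and lowest in QKO 2, where Serpina3n was high. Gfap and Vim rose in KO vs control (1.99 ± 0.26, adjusted p = 0.00562, and 0.66 ± 0.07, adjusted p = 0.00177) and fell in DKO vs KO (-1.96 ± 0.26, adjusted p = 0.00546, and -0.77 ± 0.07, adjusted p = 0.000667). Calls in either direction covered 0.734% of all genes in KO vs control and 0.568% in DKO vs KO. The fall of both genes in DKO vs KO and QKO vs KO passed in 10 of 10 alternatives, while the rise in KO vs control was lost for Gfap without control 1, control 2 or KO 1 and for Vim with the HOX covariate. The list without the members had a median log2 fold change of -0.02 in QKO vs TKO and -0.0077 in QKO vs control.

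Reactive astrocyte genes known from inflammation and from ischaemia moved in few cases. Of the 12 inflammation genes, H2-T23 rose (1.36 ± 0.26, adjusted p = 0.0403) and H2-D1 fell (-1.28 ± 0.22, adjusted p = 0.0242) in QKO vs DKO, and edgeR called no other in the 9 comparisons. Both are genes of the H2 complex described above. Of the 11 tested ischaemia genes, Emp1 fell in DKO vs KO (-0.51 ± 0.08, adjusted p = 0.0163) and DKO vs control (-0.50 ± 0.08, adjusted p = 0.0228). Cd109 fell in DKO vs KO (-0.71 ± 0.13, adjusted p = 0.0411) and QKO vs KO (-0.68 ± 0.13, adjusted p = 0.0296). Calls in either direction covered 0.568% of all genes in DKO vs KO and 0.423% in DKO vs control, and 0.188% rose in QKO vs DKO. The calls of H2-T23 and H2-D1 were lost without DKO 2 and without QKO 1, that of H2-D1 also without QKO 2, those of Emp1 in DKO vs KO and DKO vs control and of Cd109 in DKO vs KO in all 4 fits without 1 library, and that of Cd109 in QKO vs KO without KO 1, KO 2 or QKO 2. Of all genes, 0.171% fell in QKO vs TKO, 0.509% in QKO vs DKO and 0.932% in QKO vs KO. Astrocyte markers fell in QKO relative to TKO in 1 of 11, to DKO in 2 of 11, to KO in 5 of 11 and to control in 0 of 11 (4 at an unadjusted p under 0.05, 1 by DESeq2), and oligodendrocyte lineage genes relative to TKO, DKO and KO in 3, 4 and 6 of 11. Their part in the level of Serpina3n was not tested.

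The IL-6 and STAT3 pathway drives acute phase genes in astrocytes and liver. Of its 19 listed genes 17 were tested, and edgeR called 0 in all 9 comparisons, with up to 1 by DESeq2. Between 1 and 5 had an unadjusted edgeR p under 0.05, with 5 in QKO vs DKO and in QKO vs control. The share of all genes in those comparisons is not given, so nothing is read from these counts. Socs3, the feedback inhibitor that STAT3 induces, averaged 2.55 ± 0.196 nRPKM in QKO, 2.31 ± 0.239 in TKO, 2.41 ± 0.137 in DKO, 2.07 ± 0.0128 in KO and 1.99 ± 0.177 in control (SD, n = 2 each). Its log2 fold change in QKO vs TKO was 0.14 ± 0.12 (adjusted p = 1.00), and in QKO vs control 0.36 ± 0.12 (adjusted p = 0.552). Stat3 itself was between 10.4 and 11.8 nRPKM in the 5 group means. Vessel, meningeal and choroid plexus markers, which mark other sources of secreted proteins, gave 0 edgeR calls in all 9 comparisons, with up to 3 per list at an unadjusted p under 0.05 and up to 1 by DESeq2.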

How the data were processed

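The deposited files give a read count and an nRPKM value, a normalized RPKM, for each Entrez gene, both made by the authors. Per the submitters' processing notes, reads were placed with GSNAP on NCBIM37; the version, the counting rule and the normalization steps were not stated there or in the labels. Each library's deposited counts were a fixed multiple of nRPKM per gene, to a relative deviation of 6.2e-14. Symbols came from RefSeq (24998 identifiers, 89.1%).

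The counts were fitted in edgeR (version 4.0.16, run in R 4.3.3; TMM, filterByExpr by genotype, quasi-likelihood F test, 1 fit of 10 libraries, residual df 5), with Benjamini-Hochberg adjustment over 18671 genes and calls under 0.05. SE is the absolute log2 fold change over the square root of F. Alternatives were DESeq2 1.42.0, median-of-ratios size factors, no filter, a HOX covariate, no high-Xist libraries, 4-library fits and each library left out. Replicates differed beyond sampling noise (chi-square per degree of freedom 7.51 to 19.5). An unadjusted edgeR p under 0.05 was found for 8.14% to 13.8% of all genes in the 5 comparisons without QKO. The same share for comparisons with QKO is not given.

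The members, the gene lists and the named-gene rule were chosen with earlier results of these data known. Named were the members, paralogs, overlapping and neighbouring genes, called genes and up to 2 markers per list, and the 3 genes most like each member. KO vs control, DKO vs control and TKO vs control share the control libraries with QKO vs control, and other pairs share TKO, DKO or KO, so their values are not independent. Stat3, Itgav, Cfb, C3, Mmp9 and H2-K1 were chosen with their values known. Levels at 1 to 3 counts carry counting errors as large as themselves.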

Additional observations from a re-analysis of the deposited data

How the results depend on the processing

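No paired analysis was possible because the labels carry no replicate numbers. The call of Spp1 in KO vs control (0.91) held with DESeq2, median-of-ratios size factors, no filter and 4 libraries. It failed with the HOX covariate (1.35), without the high-Xist libraries (0.79) and in the fits without 1 library (0.78 to 1.02), over adjusted p-values of 2.55e-05 to 0.397 in 10 alternatives. In those fits 0 members were called in KO vs control. The members called were 1 (Lcn2) in DKO vs KO without the high-Xist libraries, 0 to 1 (Lcn2, without DKO 1) in DKO vs control without 1 library, and 1 (Spp1, 0.54) in TKO vs control with 4 libraries.

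Among uncalled values, the sign turned with the HOX covariate for C4b (-0.013) and Timp1 (1.03) in KO vs control, for Serpina3n in TKO vs DKO (-0.050), and for Serpina3n (0.23) and Timp1 (0.45) in DKO vs control. It turned without the high-Xist libraries for Serpina3n (-0.085) and Timp1 (0.018) in TKO vs DKO and for Serpina3n in DKO vs control (0.078) and TKO vs control (-0.0066), and with 4 libraries for Spp1 in TKO vs DKO (0.00031). Fits without 1 library spanned -0.31 to 0.14 for Timp1 in KO vs control, -0.087 to 0.24, -0.22 to 0.23 and -0.098 to 0.016 for Serpina3n, Spp1 and Timp1 in TKO vs DKO, and -0.16 to 0.17 and -0.0067 to 0.18 for Serpina3n in DKO vs control and TKO vs control. Values with the HOX covariate lean on HOX differences within genotypes, widest in QKO (sums of 13.8 and 2.22 nRPKM). For Timp1, QKO 1 and QKO 2 were also the highest and lowest libraries.

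In QKO, Serpina3n over DKO was 1.47 without the high-Xist libraries and 1.46 to 1.80 without 1 library, and over KO 1.15 with the HOX covariate. Spp1 over KO was -0.12 with that covariate and over DKO 0.28 to 0.73 without 1 library. The cause was not tested. Over all genes, 137 passed in KO vs control and between 23 and 691 under the alternatives. Timp1, C4b and Lcn2 rest on at most 57 counts a library, so small changes in them were not detectable at this depth.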
